A study of Mus musculus with 2 samples.

Results

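Single-exon transcript models of the class Genomic that lie in annotated genes were examined in long-read RNA sequencing of the mouse heart. A member was a model with 1 exon, that class, a gene identifier of the reference annotation and at least 5 counts in a library. Replicate 1 held 1140 such models among its 91308 transcript models (1.25%), and replicate 2 held 1159 among 96944 (1.20%). The members were chosen by their class and by their counts in these same libraries, so their number and level are a description and carry no test. At the limit of the rule, 226 models in replicate 1 and 226 in replicate 2 stood at exactly 5 counts, and 332 and 348 stood just outside it at 4.

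The tissue was the heart of male B6CASTF1/J mice aged 14 days, a first-generation cross between C57BL/6J and a wild-derived CAST strain. There was 1 group of 2 libraries, replicate 1 and replicate 2, with no treatment and no second genotype. Both libraries carry 1 donor label and their descriptions name the same cDNAs. The labels speak of 3 males for a tissue sample and do not say whether those animals were pooled. Whether the spread between these libraries is technical or lies between animals or tissue pieces is therefore not known. Every p-value below covers counting error in these 2 libraries and no spread between animals.

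Long-read sequencing reads a cDNA copy of a polyadenylated RNA from end to end where the copy is complete, so that each read shows which introns were removed. Reads are then sorted by their splice sites into annotated transcripts, partial matches and new models. A read with 1 exon has no splice site to compare. It is generally classed as an incomplete splice match, ISM, where its edges fall on an exon of an annotated spliced transcript. It is generally classed as Genomic where it lies in a known gene but meets no class based on splice sites. Such reads can come from RNA copied only in its last exon, from RNA with introns still present, from new transcripts of 1 exon or from genomic DNA. In most mammalian genes the last exon holds the stop codon and the 3′ untranslated region, and cleavage at its end follows a poly(A) signal, usually AATAAA or ATTAAA, a short way upstream.

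Most members stopped exactly at an annotated transcript end, and these ends are shown, for 11 of the 12 genes with the highest mean Genomic level, because they are the feature most members shared. The other gene of the 12, A530058N18Rik, had no model that stopped at an annotated end of its own. Each sequence gives the 30 bases before that end, 5′ to 3′ on the strand of the gene, and capitals mark AATAAA or ATTAAA.
Slc25a5: aaattgaagaAATAAAaatacccaaaacca
Mb: gtctcAATAAAatatcctgcgagtcctcaa
Apoe: ttgcttAATAAAgattctccgagcacattc
Apobec2: atagcaacatcAATAAAggaaataagtggt
Klf9: aaaatAATAAAtgataaagATTAAAttgtt
Col4a2: ccataAATAAAagatattctaaggacttga
Tspan9: ataaaaactgatcatgtgtcaaaagcacaa
Slc25a4: ccaagtggacaatataaactgaagaacagt
Pln: ctatacaattatattctattgactataaaa
Tns1: tttataaatgataaagttacacaaacccag
Esrra: agaaaaaaaatatactatggagctcaagta
The first 6 carried a signal in the bases shown, with 19 bases between AATAAA and the end in Mb and in Col4a2, 18 in Apoe, 14 in Slc25a5 and 13 in Apobec2. Klf9 had both hexamers, and ATTAAA lay 5 bases before the end. In Tspan9 the signal began before the bases shown, with 25 bases between it and the end. The other 4, Slc25a4, Pln, Tns1 and Esrra, held neither hexamer in their last 50 bases. On mm10 these stretches lie at chrX:36798778-36798807 for Slc25a5, chr15:77015487-77015516 for Mb, chr7:19696267-19696296 for Apoe and chr17:48419231-48419260 for Apobec2. Those of Klf9, Col4a2, Slc25a4 and Pln lie at chr19:23168105-23168134, chr8:11449258-11449287, chr8:46206797-46206826 and chr10:53345958-53345987, and those of Tspan9, Tns1 and Esrra at chr6:127961396-127961425, chr1:73910231-73910260 and chr19:6910977-6911006. All bases shown for Slc25a5, Mb and the other genes came from the GENCODE M21 transcript sequences, not from reads.

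Both libraries were of like depth. They held 1107678 and 1110707 counts, of which 1059016 and 1064679 fell on reference genes. All 10 cardiomyocyte markers were detected in each library, at 4.47% and 4.60% of those counts. Atrial markers summed to 0.487% in replicate 1 and 0.120% in replicate 2, red blood cell markers to 1.73% and 1.28%, and the thymus markers (Cd8a, Cd8b1, Dntt and Cd3d) to 1 count with 3 of 4 at 0 and to 76 counts. Single-exon Genomic models of these genes held 1 and 0 counts in the atrial list, 48 and 0 in the red blood cell list and 0 in the thymus list, and the part of tissue make-up in the results was not tested.

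Members made up 1.92% of the counts on reference genes in replicate 1 (95% Clopper-Pearson interval 1.89 to 1.95) and 1.76% in replicate 2 (1.73 to 1.78). They held 20336 and 18709 counts in 1118 and 1121 genes, and 1575 genes had a member in at least 1 library. Single-exon Genomic models of any count numbered 6549 and 6749, with 28975 and 27615 counts, and 3432 and 3558 of them were single reads. The median member had 8 counts in each library, 54 and 57 members had 50 or more, and the 10 highest members held 22.3% and 20.0% of all member counts. Their median length was 1506 bases in replicate 1 and 1784 in replicate 2, with a range of 1 to 7999 and of 1 to 8962. Genes annotated as protein-coding held 1086 and 1094 members (95.3% and 94.4%), antisense genes 29 and 37, and long intergenic noncoding RNA genes 11 and 13.

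Most members lay wholly inside the last exon of an annotated transcript. In replicate 1, 902 of 1140 members (79.1%) did so, and in replicate 2, 868 of 1159 (74.9%). Counted in reads, last-exon members held 72.1% ± 1.4 (SD, n = 2) of member counts. Models within the gene that held exonic bases but fitted no single annotated exon are called border members here. They held 16.9% ± 2.8, with 112 and 130 members. Of these, 6 and 4 held no intronic base, and those with intronic bases held 11.7% and 14.5% of member counts. Models that passed the annotated end of their gene by over 10 bases held 5.78% ± 1.1 (70 and 95 members), and models wholly inside introns 5.05% ± 0.35 (52 and 62 members). Only 4 members of each library lay in an exon that was not a last one.

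**Figure D1:**
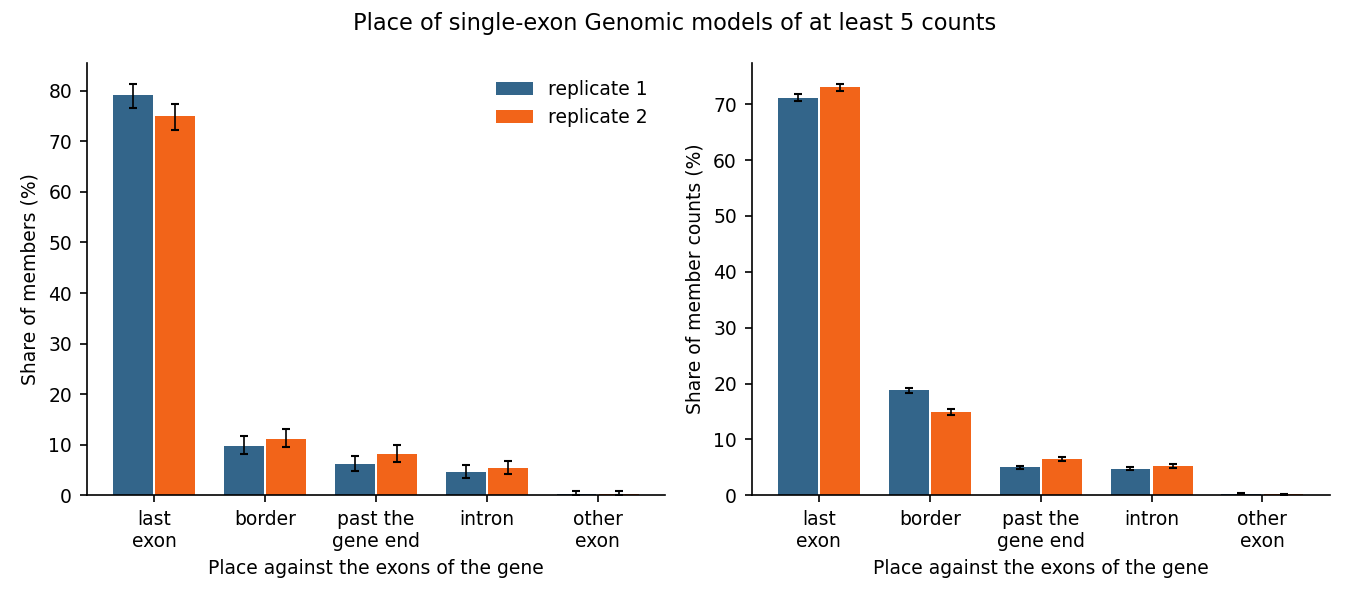
Share of members (left) and of member counts (right), in percent, by place against the exons of the gene, for replicate 1 (blue) and replicate 2 (orange), with 95% Clopper-Pearson intervals. Last exons held 79.1% and 74.9% of members, and border members held a larger share of counts in replicate 1 (18.8%) than in replicate 2 (14.9%). Border members with an intronic base held 11.7% and 14.5% of member counts.

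Between the libraries, the share of each place among all counts on reference genes moved by little. This was tested on single-exon Genomic models of any count, for each of the 5 places with Fisher's exact test (two-sided) and Benjamini-Hochberg adjustment. Last-exon models took 1.90% of counts in replicate 1 and 1.80% in replicate 2 (log2 ratio of replicate 2 over replicate 1 -0.08, adjusted p = 4.6e-08), a difference that did not pass against all single-exon Genomic counts (-0.00, adjusted p = 0.71). Models past the gene end took 0.146% and 0.169% (0.22, adjusted p = 2.5e-05) and intronic models 0.192% and 0.206% (0.10, adjusted p = 0.035). The intronic difference did not pass over members of at least 5 counts alone (0.01, adjusted p = 0.86). As shares of member counts, introns went from 4.80% to 5.29% (0.14, adjusted p = 0.028). Last exons went from 71.1% to 73.1% (0.04, adjusted p = 4.2e-05), so the result depends on the counts used for comparison. Border models took 0.488% and 0.414% (-0.24, adjusted p = 3.3e-15), and a single gene set that direction. Without Pln, whose model held 1375 of the border counts of replicate 1, border models took 0.358% and 0.414% (0.21, adjusted p = 3.2e-10).

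Most last-exon members covered a part of the exon. They spanned a median of 56.8% of it in replicate 1 and 61.8% in replicate 2, 389 and 328 of them covered under 50%, and 108 and 123 covered at least 90%. Their 3′ end fell on an annotated transcript end, to the base, in 793 of 902 (87.9%) and 771 of 868 (88.8%). Their 5′ end lay within 50 bases of an annotated transcription start in 7 and 10. Most last-exon members were thus listed as running to an annotated end. Of the last-exon members, 809 and 782 had a 3′ end within 50 bases of an annotated end, so nearly all of these lay on it exactly. Whether model building set read ends to annotated sites is not given in the sources used here. Every end given to the base is therefore the end listed for a model, not one seen in reads.

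Genes with long last exons had members more often. Among 3022 genes with several exons and at least 50 counts in each library, 702 had a member, and their last exon had a median length of 1554 bases against 786 bases in the 2320 genes without one. Of genes with a last exon under 250 bases 9.43% had a member, of those from 1000 to under 2000 bases 28.5%, and of those from 2000 to under 4000 bases 39.9%. The median number of exons was 7 with a member and 8 without. A longer last exon is also a longer stretch in which a 1-exon read can lie, and gene level was not held fixed in this description.

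**Figure D2:**
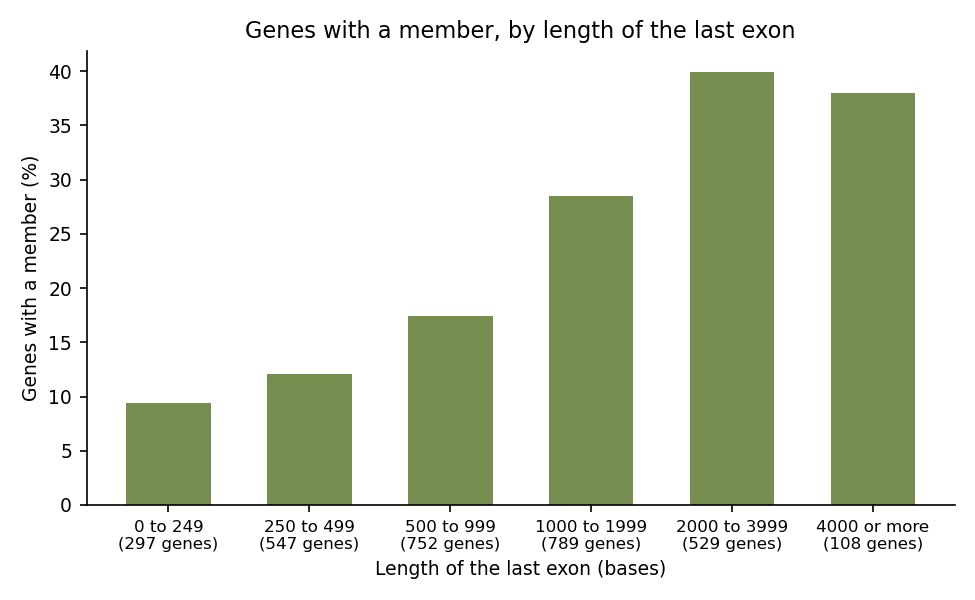
Share of genes with a member in at least 1 library (%), by length in bases of the last exon of the gene's most counted annotated transcript, for genes with several exons and at least 50 counts in each library. The share goes from 9.43% under 250 bases to 39.9% between 2000 and 4000 bases and is 38.0% above that.

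The poly(A) signal was common at these ends. Members that stopped at an annotated end were searched in the last 50 bases of an annotated transcript ending there, on the strand of the gene. Those bases can reach beyond a member under 50 bases long. AATAAA or ATTAAA was present for 766 of 872 members with sequence in replicate 1 (87.8%) and 763 of 857 in replicate 2 (89.0%). The same share was 76.1% and 75.6% among annotated transcripts with at least 5 counts in these libraries and 50.2% among all 58787 protein-coding transcripts of the annotation. AATAAA alone was present for 74.0% and 73.2% of these members and in 61.8% and 61.6% of the annotated transcripts with counts.

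A smaller set, 113 and 107 members, stopped inside an annotated exon more than 50 bases from any annotated end. For 51 (45.1%) and 50 (46.7%) of these, the 50 annotated transcript bases up to the end held one of the hexamers. The share was 5.11% of all 50-base windows in the last exons of the same genes. The 20 bases after the end held at least 12 A in 16 (14.2%) and 18 (16.8%), against 1.66% of 20-base windows in those exons. The next 20 bases after the end of 2 models among those with the most counts are given to show how many A they held.
Polr2l: atcaggtattgggaatcaaa
Gadd45gip1: ctaaaggaagaaagacaacg
Polr2l, a subunit shared by RNA polymerases, held 8 A in chr7:141472642-141472661 and had 77 counts in replicate 1. Gadd45gip1 held 11 A in chr8:84834325-84834344 and had 65 counts in replicate 1. Neither reached 12 A.

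The leading gene by mean Genomic level was Slc25a4, which encodes the heart form of the carrier that exchanges ADP for ATP between mitochondria and cytosol. Its single-exon Genomic model held 0 counts in replicate 1 and 1928 in replicate 2. The model covered chr8:46206797-46207543 on the minus strand, inside the last exon of the gene and up to its annotated end. Replicate 1 instead held 2301 counts of a single-exon ISM model at chr8:46206797-46207620. Both models stopped at the same base, and the ISM model began 77 bases further upstream, at the edge of the exon. With both classes summed, Slc25a4 had 2301 and 1928 counts, 8.42% and 7.77% of its reads.

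Pln encodes phospholamban, the small inhibitor of the calcium pump of the sarcoplasmic reticulum. Its Genomic model held 1375 counts in replicate 1 and 0 in replicate 2, at chr10:53343485-53345987 on the plus strand. Replicate 2 held 909 counts of a single-exon ISM model at chr10:53343757-53345987. The ends were the same base, and here the Genomic model began 272 bases upstream of the ISM model, at the start of a last exon of another annotated transcript. The model held no intronic base: it was counted as a border member since no single annotated exon spans it. Summed over both classes, single-exon reads made up 45.8% of Pln counts in replicate 1 and 37.2% in replicate 2.

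Mb encodes myoglobin, the oxygen-binding protein of muscle. Its Genomic model held 770 counts in replicate 1 and 0 in replicate 2, whereas a single-exon ISM model held 0 and 667. The Genomic model, chr15:77015487-77015905, and the ISM model, chr15:77015487-77016072, shared the 3′ end and differed by 167 bases at the 5′ end. Klf9, a zinc finger transcription factor induced by glucocorticoid and thyroid hormones, had 242 Genomic counts in replicate 1 and 305 ISM counts in replicate 2, with 0 of the other class in each. Srl, which encodes the calcium-binding protein sarcalumenin, had 224 Genomic counts in replicate 1 and 198 ISM counts in replicate 2. Col4a2, a chain of the collagen of basement membranes, had 384 ISM counts in replicate 1 and 239 Genomic counts in replicate 2. Its leading Genomic model was a border member of 4312 bases, 1663 of them exonic. It began 3083 bases upstream of the ISM model, which held 1229 bases of the last exon. In each of these genes the class of the reads changed with the library and the summed level did not vanish in either.

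**Figure D3:**
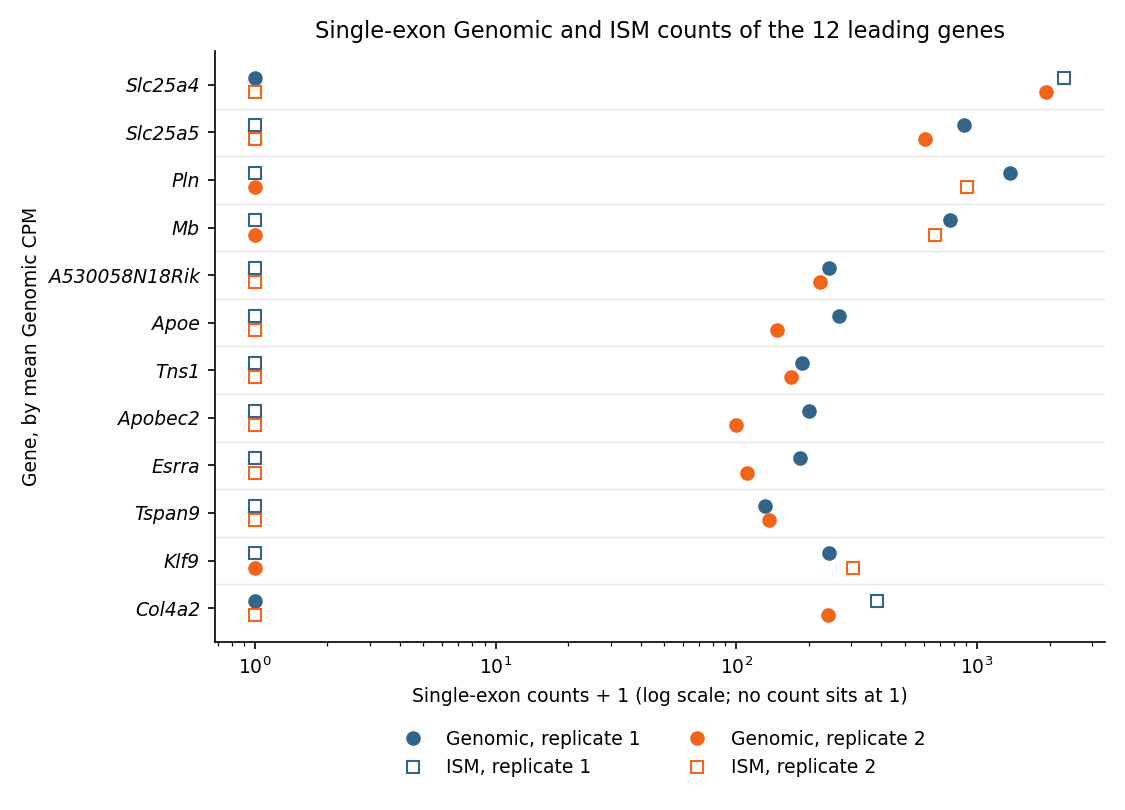
Single-exon counts plus 1 (log axis) of the 12 genes with the highest mean Genomic level, for Genomic models (filled circles) and ISM models (open squares) in replicate 1 (blue) and replicate 2 (orange). Slc25a4, Pln, Mb, Klf9 and Col4a2 hold Genomic counts in 1 library and ISM counts in the other, and the other 7 genes hold Genomic counts in both and no ISM counts.

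The exchange of class was counted over all genes with at least 20 single-exon Genomic and ISM counts in each library. There were 263 such genes. Genomic models held at least 90% of those counts in both libraries in 136 genes (51.7%), and ISM models did so in both in 55 (20.9%). In 50 genes (19%) one class held at least 90% in one library and the other class in the other, with 26 genes Genomic in replicate 1 and 24 Genomic in replicate 2. The remaining 22 were mixed in at least 1 library. In the 50 genes, the leading Genomic and ISM models ended within 50 bases of each other in 46 and at the same base in 42. Their 5′ ends were within 50 bases in 6 genes, the Genomic model began further downstream in 30 and further upstream in 14, and the median distance was 457 bases. The ISM model began on an annotated exon edge in 48 of the 50, and the Genomic model in 7. The leading Genomic model lay in a last exon in 38 genes and was a border model in 12. The sum of both classes had a median log2 ratio of -0.17 in these genes, with a range of -1.10 to 0.59.

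The 2 classes also differed in shape over all members. Of ISM single-exon models with at least 5 counts, 537 in replicate 1 and 477 in replicate 2, 95.5% and 95.6% began exactly on an annotated exon edge. Of the Genomic members 11.0% and 11.6% did. Last exons held 98.9% and 98.7% of these ISM models and 79.1% and 74.9% of Genomic members. The classes are in general described by such edges, so this difference is in part built into the members. Edges did not settle the class in every gene. In Gadd45gip1, Rtraf and Zfp651 the leading Genomic model of one library and the leading ISM model of the other had the same coordinates.

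Genomic counts per gene were compared between the libraries by a two-sided exact binomial test against the totals on reference genes. Features were the single-exon Genomic sum and the sum of all other reads of every gene. The 10827 features that reached 10 counts over both libraries were adjusted together by Benjamini-Hochberg. Over all features 566 passed an adjusted p of 0.05 (5.23%). Of the 1123 Genomic sums 181 passed (16.1%), 95 higher in replicate 1 and 86 in replicate 2, and of the 9704 other sums 385 (3.97%). Fewer Genomic sums passed in edgeR's exact test with a common dispersion (97 of 1123) and with a minimum of 20 counts, where fewer were tested (90 of 485). Among the 181, 136 had 0 counts in one library. With ISM single-exon counts added to the Genomic sums, 40 of 1634 sums passed (2.45%), against 3.06% of all 11261 features, and 28 of the 181 genes still did. All 50 genes that exchanged class were among the 181, and 3 of them passed with both classes summed. The 50 genes were chosen for a Genomic share that differed between the libraries, so their place among the 181 was all but fixed in advance.

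**Figure D4:**
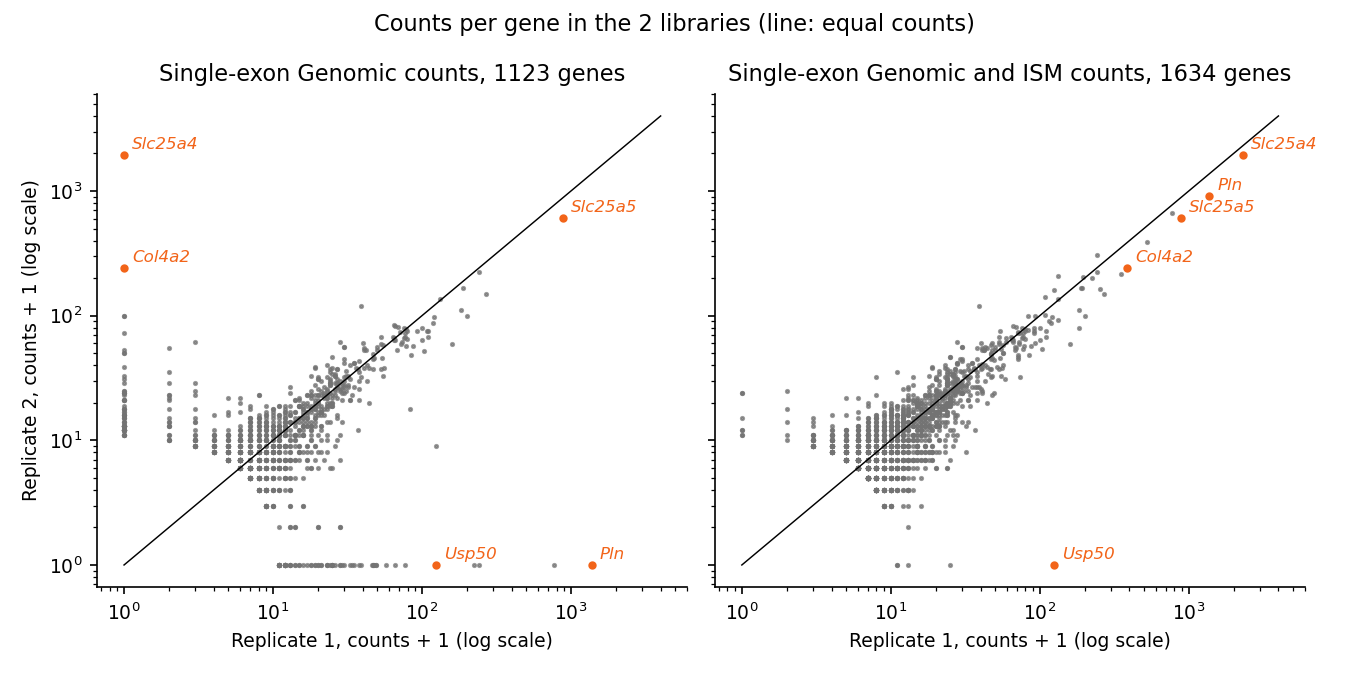
Counts plus 1 per gene in replicate 1 (x) and replicate 2 (y), log axes, for genes with a sum of at least 10: single-exon Genomic counts of 1123 genes (left) and Genomic and ISM counts together of 1634 genes (right). The line marks equal counts, and named genes are orange. On the left 136 genes lie on an axis with no count in one library, and on the right Slc25a4, Pln and Col4a2 lie near the line while Usp50 stays at 0 in replicate 2.

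The genes with the smallest p showed the exchange most clearly. Against a floor of 3 counts per library, Genomic counts were at least 461-fold higher in replicate 1 for Pln, 258-fold for Mb, 81.1-fold for Klf9 and 75.1-fold for Srl. In the other direction they were at least 639-fold higher in replicate 2 for Slc25a4 and 79.2-fold for Col4a2. Mfn2, a mitochondrial fusion protein, had 0 and 98 Genomic counts, Mgll, the monoglyceride lipase, 0 and 98, and the small heat shock gene Hspb7 0 and 72. Added to their ISM counts they stood at 82 and 98, 92 and 98, and 73 and 72. In the summed test Mb (log2 ratio -0.21, adjusted p = 0.12), Klf9 (0.32, 0.17), Srl (-0.18, 0.70), Mfn2, Mgll and Hspb7 did not pass. Pln (-0.60, adjusted p = 2.1e-20), Slc25a4 (-0.26, 4.8e-07) and Col4a2 (-0.69, 5.8e-07) passed and were higher in replicate 1 in the exact binomial test.

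Usp50 was the exception among these genes. Its Genomic counts were 123 in replicate 1 and 0 in replicate 2, and no ISM model made up for them. Of these, 120 came from a model at chr2:126709096-126709354 on the minus strand. The single-exon gene Gm10774 lies next to it on the same strand at chr2:126709354-126709557, and its annotated transcript held 3 counts in replicate 1 and 78 in replicate 2. The Usp50 model and the Gm10774 transcript thus share 1 base, and the reads listed for Usp50 in one library and for Gm10774 in the other lie side by side.

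The share of each gene's reads that were single-exon Genomic was compared over 1484 genes, all of 20 counts or more in each library, by Fisher's exact test (two-sided). It passed in 228 genes (15.4%), 126 with the larger share in replicate 1 and 102 in replicate 2, and in 390 of 1087 genes where only models of at least 5 counts were used. With ISM single-exon reads included, 13 of 2107 genes passed (0.617%), 11 of them among the 228. Klf9 lay at 92.7% and 0% as Genomic, and at 92.7% and 91.6% with ISM. Trp53inp2, a regulator of autophagy and transcription, went from 49.2% (123 counts) to 2.96% (8 counts) as Genomic and lay at 49.2% and 58.9% with ISM. Mgll lay at 0% and 56.6% as Genomic and at 51.4% and 56.6% with ISM, and Hspb7 at 0% and 21.3%, then 17.4% and 21.3%. Mfn2 lay at 0% and 8.84% as Genomic and 8.63% and 8.84% with ISM, and Srl at 12.5% and 0%, then 12.5% and 9.74%. Pln and Col4a2 passed in both forms of the test. Their summed share was larger in replicate 1, with 46.4% and 32.1% for Col4a2 (adjusted p = 4.8e-06, Fisher's exact test with ISM).

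Some leading genes held Genomic reads in both libraries. Slc25a5, a second ADP/ATP carrier, had 881 counts in replicate 1 against 604 in replicate 2, or 35.6% and 28.5% of its reads. Both models were border members. In replicate 1 the model spanned the whole gene, chrX:36795651-36798807, across 3 exons and the introns between them, and in replicate 2 it began further downstream, at chrX:36796840. The count was higher in replicate 1 (log2 ratio -0.55, adjusted p = 4.2e-11, exact binomial test), while the other reads of the gene lay at -0.08, short of the threshold. Slc25a5 missed the threshold in edgeR's exact test with a common dispersion (adjusted p = 1.0), as did Apoe, Apobec2 and Esrra (adjusted p = 1.0, 0.63 and 1.0).

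Apoe, the apolipoprotein of lipid transport, had 267 and 147 Genomic counts on the same 354 bases, chr7:19696267-19696620, inside its last exon. Its Genomic count lay at a log2 ratio of -0.86 (adjusted p = 2.0e-07) and its other reads at -0.39 (adjusted p = 3.7e-05), both by the exact binomial test. Esrra, a nuclear receptor that drives genes of mitochondrial metabolism, had 182 and 110 counts on 73 bases, chr19:6910977-6911049 (log2 ratio -0.73, adjusted p = 0.0010, exact binomial test). Tns1, which encodes the focal adhesion protein tensin, had 187 and 167 counts, 91.7% and 92.3% of its reads. Tspan9, a tetraspanin, had 131 and 135, 89.1% and 83.9%. For Tns1 (adjusted p = 0.76) and Tspan9 (adjusted p = 1.0) the exact binomial test found no difference past the threshold. In these last 2 genes most reads of the gene were single-exon reads from the last exon, and the multi-exon reads numbered 17 and 14 for Tns1 and 16 and 26 for Tspan9.

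Several members were listed with a length of a few bases. Models under 50 bases numbered 60 in replicate 1 and 41 in replicate 2, with 1176 and 837 counts. Models of exactly 1 base numbered 27 and 15, with 579 and 388 counts. The highest was Apobec2, a muscle member of the cytidine deaminase family, whose model at chr17:48419231 held 199 counts in replicate 1 and 98 in replicate 2. All Genomic reads of Apobec2, 199 and 99, lay at a log2 ratio of -1.01 (adjusted p = 4.2e-07, exact binomial test). That base is the annotated end of the gene. Myzap, a protein of the intercalated disc, and the actin-binding gene Nexn each had such a model with 48 counts in replicate 1, and Sparc and Lynx1 had 67 and 65 counts in replicate 2. A length of 1 base is what the files list for the model, and the reads behind it are not used here, so their own length is unknown.

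Most border members reached the last exon of their gene. Of the 112 and 130 border members, 97 and 105 touched the last exon, and 77 and 86 stopped exactly at an annotated end. They touched 1 exon in 42 and 54 cases, 2 exons in 40 and 48, and 3 or more in 30 and 28. The median border member held 788 intronic bases in replicate 1 and 863 in replicate 2, 48.3% and 37.7% of its length. A start within 50 bases of an annotated transcription start was seen in 34 and 46, and 19 and 27 ran from such a start to an annotated end. Start and end could belong to different transcripts of the gene, and an intronic base was not required. The border members of Tcap, the titin cap of the Z-disc, ran in this way with an intron in place. They had 86 and 56 counts on chr11:98383811-98384953. So did the model of Myadml2 in replicate 1, with introns in place and 76 counts. Leaving out the 6 and 4 border members without an intronic base, Pln among them, left 2377 and 2721 counts, 11.7% and 14.5% of member counts.

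Members past the gene end ran beyond the annotated gene by over 10 bases. Lrg1, a secreted glycoprotein with leucine-rich repeats, had 109 and 66 counts on models that passed its annotated end by 395 and 402 bases. The antisense gene Gm20659 had 78 and 74 counts at chr11:101971649-101972715 in replicate 1, wholly over Dusp3 exons on the other strand. Another antisense gene, Gm43126, had 83 and 47 counts over exons of Ccnd2. Of the 70 and 95 members of this kind, 40 (57.1%) and 50 (52.6%) overlapped an exon of a gene on the opposite strand.

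Intronic members, by the definition of this place, had no 3′ end on an annotated end of their own gene. The highest were those of A530058N18Rik, a noncoding transcript, with 241 and 222 Genomic counts against 1 and 2 other reads. Its leading models, chr2:114047282-114052111 in replicate 1 and chr2:114048123-114052111 in replicate 2, held 211 and 213 counts. They run antisense to Actc1, the cardiac actin gene, over 1347 and 1019 bases of its exons, and the model of replicate 1 began exactly at the annotated end of Actc1. Cacna2d3, a calcium channel subunit, had 96 and 78 counts in an intron, all over an exon of Lrtm1 on the other strand, and the antisense gene Gm15337 had 108 and 75 over Arhgap26. Of the 52 and 62 intronic members, 22 (42.3%) and 31 (50%) overlapped an exon of the opposite strand, against 12.7% and 12.3% of last-exon members.

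Opposite-strand genes also coincided with ends of members. In 29 members of replicate 1 and 31 of replicate 2, with 735 and 508 counts, the 5′ end was exactly the annotated 3′ end of a gene on the other strand. The Esrra model began at the end of Trmt112, and Atp1b1, a subunit of the sodium pump, began at the end of Nme7 in both libraries with 42 and 38 counts. Polr2c, a subunit of RNA polymerase II, began at the end of Dok4 with 21 counts in each. Whether the counting used the strand of the reads is not given in the sources used here, so reads of a gene and of its antisense partner cannot be told apart in these members.

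How many members had a counterpart in the other library depended on what was accepted as a match. In the main definition, a match was a single-exon Genomic model of the same gene and strand that overlapped by at least 50% of both lengths. It existed for 716 of 1140 members of replicate 1 (62.8%, interval 59.9 to 65.6) and 727 of 1159 of replicate 2 (62.7%, 59.9 to 65.5). As a mean of both libraries, 30.1% of members matched where both ends had to lie within 50 bases, 42.4% at an overlap of 80%, 71.3% with only the 3′ ends within 50 bases and 82.5% at any overlap. With at least 5 counts in the other library it existed for 519 in each direction, 45.5% and 44.8%. Of the unmatched 424 and 432 members, 111 (26.2%) and 120 (27.8%) overlapped a single-exon ISM model in the same way, and these held 4160 of 8268 and 3512 of 7643 unmatched counts. Genes with a member in both libraries numbered 664, 59.4% and 59.2% of each list.

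Counts raised the match only up to a point. Models with 1 count matched in 20.7% and 19%, those with 5 to 9 counts in 59.0% and 61.7%, and those with 10 to 19 counts in 70.9% and 65.1%. Models with 50 or more counts matched in 59.3% (interval 45.0 to 72.4) and 66.7% (52.9 to 78.6), within the interval of the class below. Where a Genomic or an ISM model was accepted, 72.5% and 73.1% of members had a match, and 74.1% and 73.7% of those with 50 or more counts.

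**Figure D5:**
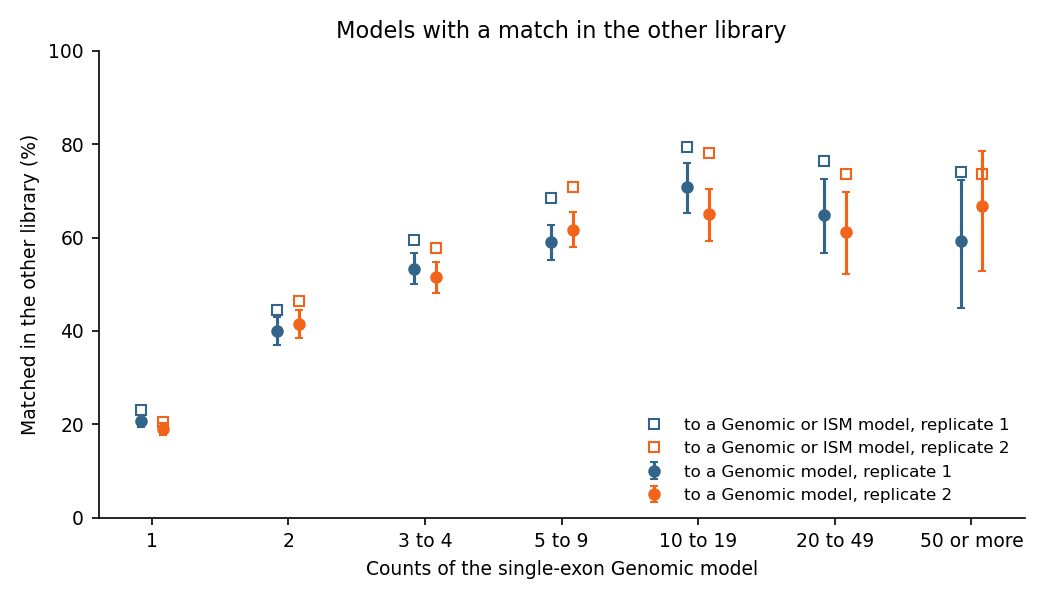
Share of single-exon Genomic models with a match in the other library (%), by counts of the model, for replicate 1 (blue) and replicate 2 (orange), with 95% Clopper-Pearson intervals (filled circles, match to a Genomic model). Open squares give the match to a Genomic or ISM single-exon model, which lies at 74.1% and 73.7% for models with 50 or more counts.

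Groups of genes with roles in heart were compared by the share of their reads in single-exon Genomic models, beside 2.74% and 2.59% over all reference genes. Calcium handling genes had 10.9% in replicate 1 and 1.09% in replicate 2, and 11.7% and 8.12% with ISM, where all genes had 4.11% and 3.80%. Pln with 1375 and Srl with 224 held most of the 1857 Genomic counts of that list in replicate 1, and the calcium pump Atp2a2 had 54 and 57, 0.842% and 0.721% of its reads. Oxidative phosphorylation and carrier genes had 0.163% and 2.01%, and 2.79% and 2.56% with ISM. Beside Slc25a4, Sdha of the succinate dehydrogenase complex had 31 counts in each library, and Cox7b of cytochrome c oxidase 1 and 54, or 37 and 54 with ISM. Extracellular matrix genes had 1.09% and 3.38%, and 7.05% and 4.82% with ISM. Sparc had 63 and 67 counts and Col5a1 14 and 18. These 3 lists differed more between the libraries as Genomic reads alone than with ISM, and Pln, Slc25a4 and Col4a2 held most of the counts behind that difference.

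The other lists lay closer together. Sarcomere genes had 0.517% and 0.393%, below all reference genes, led by Tcap, by Synpo2l at 64 and 65 counts, and by the Z-disc gene Ldb3 at 43 and 37. Fatty acid oxidation genes had 0.668% and 0.359%. The lipoprotein lipase Lpl had 118 and 87 counts, the thiolase Acaa2 76 and 0 (76 and 53 with ISM), and Fabp3 24 and 21. Genes of the tricarboxylic acid cycle and glycolysis had 0.336% and 0.235%, with hexokinase Hk2 at 24 and 37 counts, citrate synthase Cs at 34 and 0 (92 and 59 with ISM) and Pdha1 at 0 and 32 (37 and 32 with ISM). Splicing and RNA-binding genes had 5.22% and 5.15%, with Hnrnpa2b1 at 71 and 58, Qk at 29 and 26 and the helicase Ddx17 at 18 and 27, or 75% and 90% of Ddx17 reads. Long noncoding RNA genes had 3.98% and 5.52%, on 16 and 19 counts, with Airn at 8 and 13, Mhrt at 7 and 3 and Meg3 at 1 in each. Beside 1575 of 16269 detected genes with a member, each counted by gene identifier, members were found in 15 of 38 splicing, 19 of 35 sarcomere, 11 of 20 calcium handling, 12 of 40 oxidative phosphorylation and 11 of 30 tricarboxylic acid cycle and glycolysis genes. They were found in 8 of 30 matrix, 6 of 20 fatty acid oxidation and 1 of 13 long noncoding RNA genes. The 16269 detected genes include genes with few reads, and gene level was not held fixed in this comparison. Among genes with several exons and at least 50 counts in each library, 702 of 3022 had a member.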

How the data were processed

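Per the file headers, the authors deposited, for each library, counts of reads per transcript model as whole numbers without normalization, listed from 1 count upward, with the number of exons and the length of each model, and an annotation with mm10 coordinates. Models carry the source name TALON and the GENCODE M21 annotation, per the file headers. The aligner and its version: not given in the sources used here. Members were placed against GENCODE M21 exons in this order: last exon or other exon (overhang of at most 10 bases), past the gene end, intron, border. CPM used the totals on reference genes, and log2 ratios a pseudocount of 1 CPM. Tests used scipy 1.17.1, and edgeR 4.0.16 gave TMM factors (0.9713 and 1.03) and a common dispersion of 0.033. Tests were checked on simulated counts drawn with counting error only, so the check does not cover further spread between libraries. Intervals and floors of 3 counts cover counting error only, since no molecular identifiers separate reads from molecules. The members, lists and alternatives were chosen with earlier results of these data known.

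Named are the 12 genes with the highest mean Genomic CPM, the 3 highest matched members of replicate 1 per place, the 5 genes of smallest p per direction in each test per gene, and up to 3 genes per list. Others were named after their values were seen. Some items are not reported here.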

Additional observations from a re-analysis of the deposited data

How the results depend on the processing

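No paired analysis was possible because the series has 1 group and its replicate numbers pair no samples. Last exons held 72.1% of member counts. They held 70.5% with a minimum of 10 counts and, in settings chosen after seeing the data, 70.7% without models under 50 bases, 74.7% without Pln and 79.8% without members over an opposite-strand exon. That last setting moved the share in introns from 5.05% to 2.51% and past the gene end from 5.78% to 3.35%, and leaving out Pln moved the border share from 16.9% to 13.9%. The share of members matched was 62.8%. It was 42.4% at an overlap of 80%, 82.5% at any overlap of 1 base, 30.1% with both ends and 71.3% with 3′ ends within 50 bases. It was 58.1% with a minimum of 3 counts, 66.0% with 10, 45.2% with at least 5 counts in the other library and 72.8% with ISM models accepted.

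The number of genes past the threshold in the count test, 181, was 90 with a minimum of 20 counts, where fewer genes are tested, 97 with edgeR (exact test, common dispersion) and 40 with ISM counts. That of the share test, 228, was 390 with models of at least 5 counts only and 13 with ISM counts. Among places, the last-exon difference of models of any count did not pass against all single-exon Genomic counts (-0.00, adjusted p = 0.71). Over members alone, against all counts on reference genes, the intron difference did not pass (0.01, adjusted p = 0.86). The other-exon difference passed there (-0.93, adjusted p = 0.0067), each by Fisher's exact test. The border difference reversed to 0.21 without Pln. With ISM counts the log2 ratio reversed for Slc25a4 (-0.26), Klf9 (0.32), Col4a2 (-0.69), Pdha1 (-0.21), Hspb7 (-0.03) and Trp53inp2 (0.36), and the share difference in percentage points for Slc25a4 (-0.65), Col4a2 (-14.35), Pdha1 (-0.53) and Trp53inp2 (9.69). The cause of these changes was not tested. Leaving out replicate 1 or 2 gave 71.1% to 73.1% in last exons, 4.80% to 5.29% in introns, 14.9% to 18.8% across borders, 4.99% to 6.58% past the gene end and 62.7% to 62.8% matched.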
